A study of Mus musculus with 24 samples.

Results

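The lung at 6 weeks of age was set against the lung at 2 weeks, which asks how microRNA levels changed while the lung matured after most of its alveoli had formed. The 6-week group held 4 arrays and the 2-week group 5, each array with total RNA of whole lung from C57BL/6 mice, a common inbred strain. The labels call the arrays of an age biological replicates and do not say how many animals went into one. The mice were healthy, and the labels name neither a treatment nor a mutation. Arrays of day 1, day 4 and day 7, 5 of each, complete the series of 24 and entered the same statistical model. The title of the series calls the lungs fetal, whereas every array label gives an age after birth, and those ages were used. Described here are the 296 mouse miRNA names, of 611 on the array, that the scanner software marked as detected on every array of at least one of the 2 ages. Of these, 257 were detected on every array of both ages, 34 on every 2-week array but not on every 6-week array, and 5 on every 6-week array but not on every 2-week array.

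A miRNA is a short RNA that guides a silencing complex to messages that pair with its seed, the bases near its 5′ end, and lowers their output. One hairpin can give a mature strand from each arm, and the less abundant one carries an asterisk in the names of this array. Hairpins often lie in clusters that are transcribed together, and families of miRNAs share a seed and so many of their targets. In the mouse, air sacs divide into alveoli after birth, the double capillary layer of the new walls fuses into one, cell division slows, and the lung grows to its adult form.

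A few facts of the arrays bear on every value. Signals are on a log2 scale after each array was divided by its 75th percentile, and values below a floor of 1.17 on that scale were set to it. They compare 1 miRNA between arrays, not 1 miRNA with another, because probes differ in brightness. In RNA of a whole organ, fewer cells of a type and less RNA per cell cannot be told apart. The 75th percentile before scaling was 1071 to 2553 intensity units at 6 weeks and 1428 to 3076 at 2 weeks, and this brightness did not differ beyond the spread between arrays (log2 difference of -0.084, exact permutation test, two-sided p = 0.825). The 6-week arrays detected 271 to 311 mouse miRNAs and the 2-week arrays 303 to 343. The means of 293.5 and 319.2 differed by -25.7 (exact permutation test, two-sided p = 0.0476), a difference that lost its call when any of 8 single arrays was left out. With so few arrays, this test cannot give a very small p.

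One array stood apart in each group. Replicate 4 of 6 weeks was the dimmest of the 9 arrays and correlated with the other 6-week arrays at 0.966 at most, against at least 0.988 among the other 3. Replicate 5 of 2 weeks correlated at 0.982 with the mean of the other 2-week arrays but at 0.989 with the mean of the day 7 arrays. It was the only array of the 9 whose nearest age was not its own. Both arrays lay on the third of 3 slides. Results that rest on them are therefore also given without them. With all arrays, 107 of the names tested passed the test. Without replicate 5 of 2 weeks 90 did, without replicate 4 of 6 weeks 108 did, and without both 92 did. A change within a slide, where given below, rests on a single array at 1 of the 2 ages. That array was replicate 2 of 6 weeks on slide 1 and replicate 2 of 2 weeks on slide 2. On slide 3 it was replicate 4 of 6 weeks.

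Tested were all names detected on every array of at least one of the 5 ages, the 296 among them. Between 6 weeks and 2 weeks 107 of them (33.2%) changed at an adjusted p under 0.05 (limma, two-sided, Benjamini-Hochberg adjustment over all names tested), and 39.8% had an unadjusted p under 0.05. Of the names tested, 15 rose (4.66%) and 92 fell (28.6%), and 56 (17.4%) of them changed at least 2-fold. Among the 296 described here, 15 rose, 84 fell and 197 did not pass the test, 7 of the rises and 44 of the falls being at least 2-fold. The largest rises were those of the miR-29 family, and most of the largest falls were those of imprinted miRNAs from a single region of chromosome 12, with miR-551b of chromosome 3 (-2.68) among them. The median change was -0.16 on the log2 scale, beside -0.17 over all names tested. The 4 arrays of 6 weeks lay wholly above the 5 of 2 weeks for 12 of the 296 and wholly below them for 79, beside 3.73% and 27% of all names tested, or 30.7% in either direction.

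How many miRNAs count as rises rests on the scaling between arrays. The 15 rises made up 14% of the calls. With the 75th percentile taken over all mouse names, 57 of 119 calls were rises (47.9%), with median scaling 30 of 100 (30%), with quantile normalization 44 of 108 (40.7%) and in the values the authors normalized 44 of 104 (42.3%). The median of all names moved with them, to 0.16, 0.04, 0.04 and 0.04. None of the 99 calls among the 296 miRNAs became a call in the opposite direction under any setting that was run. Changes near the median of all names are thus relative to the scaling. The background correction mattered too: with normexp, which adds a fixed offset of 50 units, 22 names were called, and the 3 rises among them were miR-29a, miR-29c and miR-223.

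**Figure D1:**
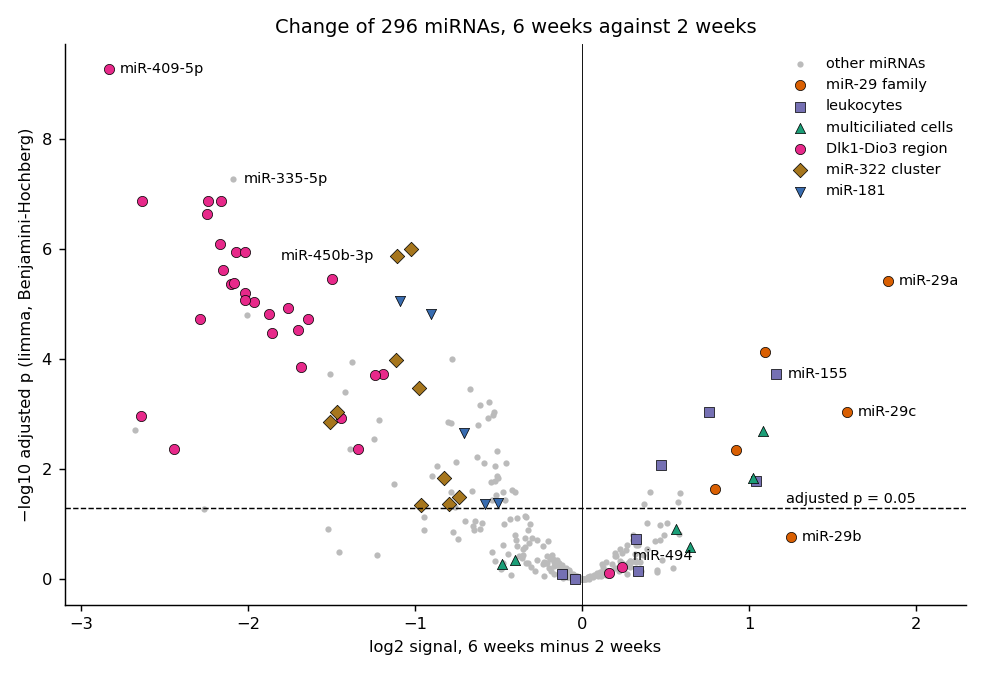
Change of each of the 296 miRNAs. The horizontal axis gives the log2 signal at 6 weeks minus that at 2 weeks and the vertical axis the negative log10 of the adjusted p, with a dashed line at 0.05. Members of the miR-29 family lie at the far right with miR-29a at 1.83, and members of the Dlk1-Dio3 region fill the upper left down to -2.83 for miR-409-5p.

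Sequences of some of the miRNAs that rose most, and of miR-29b, which did not pass the test, show 2 shared seeds. The mature strands of miR-29a, miR-29b and miR-29c carry the same seed. The strands miR-34b-3p and miR-34c* of the neighbouring miR-34b and miR-34c hairpins share another. The sequences are those of RefSeq for the mouse build GRCm38.p6, which held 215 of the 296 names, and capitals mark bases 2 to 8, the seed.
miR-29a: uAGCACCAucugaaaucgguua
miR-29b: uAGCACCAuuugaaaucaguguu
miR-29c: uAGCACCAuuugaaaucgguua
miR-34b-3p: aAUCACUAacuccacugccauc
miR-34c*: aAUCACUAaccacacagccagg
miR-155: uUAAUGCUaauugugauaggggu

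The miR-29 family, whose best known targets are messages of collagens, elastin and other matrix proteins, gave the largest rises. Of its 6 members 5 rose and none fell, beside rises in 4.66% of all names tested. The median change was 1.17 beside -0.17 over all names tested. Among the 5 rises, miR-29a* was not detected on every 2-week array. It passed the detection rule through the 6-week age only, which leans to rises. The log2 signal of miR-29a was 13.52, 13.43, 13.39 and 13.32 on the 4 arrays of 6 weeks, against 11.82, 12.01, 11.86, 11.84 and 10.40 on the 5 of 2 weeks. The groups did not overlap, and the lowest value was that of replicate 5 of 2 weeks. The rise was 1.83 ± 0.24 (SE), or 3.55-fold (adjusted p = 3.72e-06), and without that array it was 1.53. Within the 3 slides the rise of miR-29a was 1.60, 1.45 and 2.19. Without replicate 5 of 2 weeks 4 of the 6 members rose, and 2 did so with no scaling or with normexp.

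The second major strand, miR-29c, had log2 signals of 11.99, 11.98, 12.09 and 11.39 at 6 weeks, against 10.51, 10.62, 10.58, 10.59 and 9.09 at 2 weeks. Its groups did not overlap either, and it rose by 1.58 ± 0.34 (adjusted p = 0.000921). The third, miR-29b, had 11.58, 11.75, 11.84 and 9.72 at 6 weeks, against 10.004, 10.12, 10.22, 10.56 and 8.95 at 2 weeks. Replicate 4 of 6 weeks lay within the 2-week range, and the change of 1.25 ± 0.66 did not pass the test (adjusted p = 0.167). It stayed above the threshold when any 1 array was left out, at adjusted p between 0.052 and 0.333, and passed it with array brightness as a covariate (1.42, adjusted p = 0.00167).

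The minor strands of the same hairpins rose too. For miR-29c* the signals were 6.66, 6.55, 6.66 and 6.64 at 6 weeks, against 5.76, 5.79, 5.63, 5.67 and 4.81 at 2 weeks, a rise of 1.095 ± 0.19 (adjusted p = 7.38e-05). With normexp the change of miR-29c* was 0.03 and was not called. The rise of miR-29b* was 0.92 ± 0.24 (adjusted p = 0.00449), and without both arrays that stood apart its change was 0.60 (adjusted p = 0.0733). By 0.80 ± 0.26 (adjusted p = 0.0225) rose miR-29a*, which overlapped between the ages, and without replicate 5 of 2 weeks its adjusted p was 0.0625. The hairpins lie at chr6:31062673-31063088 on the minus strand, which holds miR-29a and 1 copy of miR-29b, and at chr1:195037091-195037621 on the plus strand, which holds miR-29c and the other copy. With miR-29b counted in both clusters, 3 of 4 strands rose on chromosome 6, with a median change of 1.08. On chromosome 1, 2 of 3 rose, with a median of 1.25 that is the change of miR-29b itself.

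**Figure D2:**
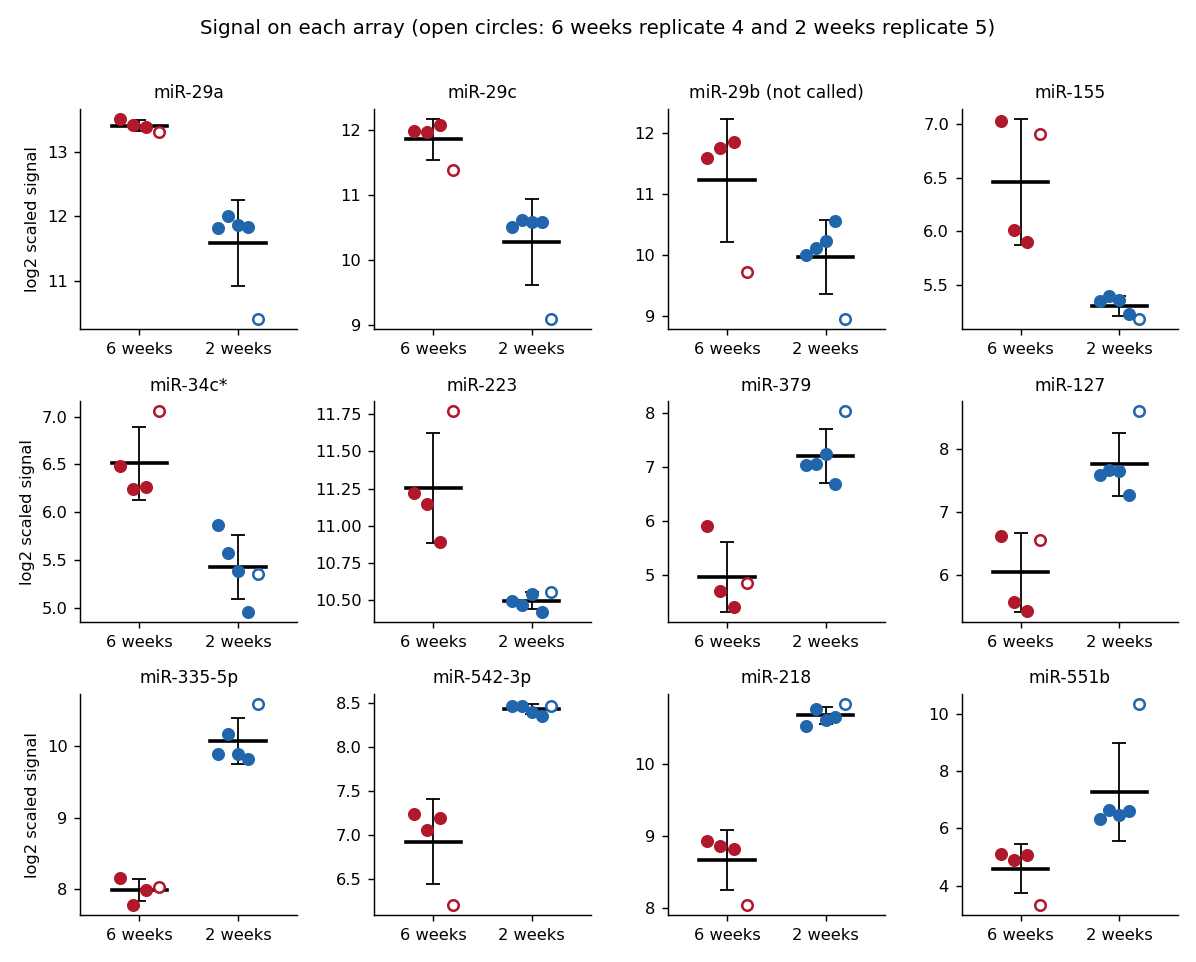
Log2 scaled signal of 12 miRNAs on each array, with 6 weeks left of 2 weeks. Bars give the mean and SD of the group (n = 4 and n = 5), and open circles mark replicate 4 of 6 weeks and replicate 5 of 2 weeks. Without overlap between the ages stand all but miR-29b, whose open circle at 6 weeks lies at 9.72.

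Among miRNAs of white blood cells, 4 of 8 rose and none fell, beside rises in 4.66% of all names tested, with a median of 0.40 beside -0.17. The strongest was miR-155, which activated lymphocytes and macrophages make, at 7.03, 6.01, 5.90 and 6.91 at 6 weeks, against 5.35, 5.40, 5.35, 5.22 and 5.18 at 2 weeks. All 6-week arrays lay above all of 2 weeks, with replicates 1 and 4 about 1 unit above the other two. The rise of miR-155 was 1.16 ± 0.22 (adjusted p = 0.000188), and with normexp the change was 0.01 (adjusted p = 0.988). The lymphocyte miRNA miR-150 had 9.52, 8.78, 8.81 and 10.28 at 6 weeks, against 8.45, 8.67, 8.23, 8.44 and 7.76 at 2 weeks, a rise of 1.04 ± 0.33 (adjusted p = 0.0164). Its highest value was again on replicate 4 of 6 weeks. Leaving that array out gave 0.73 (adjusted p = 0.0913), and leaving out replicate 5 of 2 weeks gave 0.90 (adjusted p = 0.0518).

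The myeloid miRNA miR-223 stood at 11.22, 11.15, 10.89 and 11.77 at 6 weeks, against 10.49, 10.47, 10.54, 10.42 and 10.56 at 2 weeks. It rose by 0.76 ± 0.17 (adjusted p = 0.000921) with no overlap. A smaller rise of 0.47 ± 0.13 (adjusted p = 0.0084) was that of miR-146b, which is induced by inflammatory signalling. Without both arrays that stood apart the change of miR-146b was 0.39 (adjusted p = 0.0581). Its paralogue miR-146a has the same seed, and its change of 0.32 did not pass the test (adjusted p = 0.182). The remaining 3 were miR-142-5p (0.33), miR-142-3p (-0.04) and miR-342-3p (-0.12), at adjusted p of 0.701, 0.972 and 0.802. The marker shared by all blood cell lineages is miR-142, and miR-142-3p had 11.98, 11.50, 12.04 and 10.01 at 6 weeks, against 11.58, 11.13, 11.73, 11.94 and 10.76 at 2 weeks. The 6-week arrays with the highest miR-155 and miR-150, replicates 1 and 4, were also the dimmest of that age, at 1647 and 1071 units against 2417 and 2553. With brightness as a covariate miR-155 changed by 1.12 (adjusted p = 1.04e-05) and miR-150 by 0.96 (adjusted p = 0.000265). Mean log2 brightness differed by only -0.084 between the ages, so this covariate can shift the change between them only a little. What part brightness had was not tested.

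The hairpins of miR-34b and miR-34c, which act with miR-449 when multiciliated cells form, rose in the strands miR-34b-3p and miR-34c*. For miR-34c* the values were 6.48, 6.24, 6.27 and 7.05 at 6 weeks, against 5.86, 5.58, 5.38, 4.96 and 5.35 at 2 weeks, a rise of 1.08 ± 0.26 (adjusted p = 0.00204) that was not called with normexp (0.0037). For miR-34b-3p they were 6.31, 5.90, 6.37 and 7.43 at 6 weeks, against 5.90, 5.54, 5.41, 5.24 and 5.29 at 2 weeks. The rise of miR-34b-3p was 1.02 ± 0.31 (adjusted p = 0.0143), and without replicate 4 of 6 weeks it was 0.72 (adjusted p = 0.0795). The 4 others of the 6 ciliated-cell members did not pass the test, and rises made up 4.66% of all names tested. Among them miR-34c had 10.63, 10.46, 10.55 and 9.65 at 6 weeks, against 10.07, 9.80, 9.72, 9.49 and 9.74 at 2 weeks. On 3 of the 4 arrays of 6 weeks miR-34c lay above all of 2 weeks, and its change of 0.56 ± 0.27 (adjusted p = 0.12) passed the test without replicate 4 (0.78, adjusted p = 0.0267). The related miR-449a changed by -0.40 and miR-449c by -0.48, at adjusted p of 0.447 and 0.529. Without replicate 5 of 2 weeks miR-449a changed by -0.14, and without both arrays that stood apart by 0.10.

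The remaining rises were small. The Hox cluster miRNAs miR-10a and miR-10b, which share a seed and mark position along the body axis, rose by 0.58 ± 0.20 (adjusted p = 0.0268) and 0.57 ± 0.21 (adjusted p = 0.0394). Both calls ended without replicate 4 of 6 weeks, at adjusted p of 0.149 and 0.156, and also without replicate 5 of 2 weeks, at 0.0532 and 0.0611. The signals of miR-10b were 8.71, 7.57, 7.62 and 8.59 at 6 weeks, against 7.70, 7.56, 7.58, 7.35 and 7.57 at 2 weeks, so that 2 arrays of 6 weeks lay inside the 2-week range. The last 2 rises were miR-7a* at 0.40 ± 0.14 (adjusted p = 0.0262) and miR-22 at 0.37 ± 0.14 (adjusted p = 0.0426). Without replicate 4 of 6 weeks their adjusted p was 0.102 and 0.155, and without replicate 5 of 2 weeks 0.0664 and 0.145. The call ended without any of 4 single arrays for miR-7a* and without any of 6 for miR-22.

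The falls were led by the Dlk1-Dio3 region, an imprinted stretch of chromosome 12 whose miRNAs are made from the maternal copy and are abundant in embryos and newborns. The sequences shown are those of the member with the largest fall, 2 members antisense to Rtl1, the sister miRNAs miR-379 and miR-411, whose seeds differ, and miR-376a with miR-376b.
miR-409-5p: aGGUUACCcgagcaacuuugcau
miR-431: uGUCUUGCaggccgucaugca
miR-127: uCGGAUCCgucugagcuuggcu
miR-379: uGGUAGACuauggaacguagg
miR-411: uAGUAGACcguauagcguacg
miR-376a: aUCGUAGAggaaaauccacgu
miR-376b: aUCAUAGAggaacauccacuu

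Of the 77 names of this region on the array 30 were among the 296, and 28 of these 30 fell while none rose. Falls made up 28.6% of all names tested. The median change of the 30 was -2.02 beside -0.17 over all names tested. Only 12 of the 30 were detected on all 9 arrays, with a median of -1.73. Members not detected on every 6-week array passed the detection rule through the 2-week age, which leans to falls. The seeds printed above differ, and what the members share is the position of their hairpins. The 8 strands between chr12:109585818-109595387 fell, all 8 of them, with a median of -2.02, and 17 of the 18 strands at chr12:109709065-109743784 fell, with a median of -1.92 (GRCm38.p6, plus strand). Without replicate 4 of 6 weeks 28 members fell, without replicate 5 of 2 weeks 28 did, and without both 26 did. Under the other scalings between 26 and 28 members fell, and with normexp background correction 5 did.

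Detected on all 9 arrays, miR-127, which lies antisense to Rtl1, stood at 6.62, 5.58, 5.43 and 6.55 at 6 weeks, against 7.59, 7.66, 7.65, 7.27 and 8.59 at 2 weeks. It fell by 1.70 ± 0.27 (adjusted p = 2.97e-05). At the start of the second cluster, miR-379 had 5.91, 4.70, 4.42 and 4.85 at 6 weeks, against 7.05, 7.06, 7.25, 6.68 and 8.03 at 2 weeks. That is a fall of 2.25 ± 0.24 (adjusted p = 2.24e-07). Its neighbour miR-411 fell by 2.17 ± 0.25 (adjusted p = 7.99e-07). In each of these the highest 6-week value came from replicate 1 and the highest 2-week value from replicate 5. Within the 3 slides miR-379 fell by 2.17, 1.90 and 2.79.

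For several members the fall ran into the limit of detection. Of the 84 falls 7 were of strands detected on no 6-week array and 18 of strands detected on some, and all 7 detected on none belonged to this region. Their folds are lower bounds. The largest was that of miR-409-5p, at 1.59, 1.17, 1.17 and 1.17 at 6 weeks, the last 3 at the floor, against 3.91, 3.77, 4.23, 3.73 and 4.91 at 2 weeks. This is at least 6.90-fold lower (means of 1.28 and 4.11, adjusted p = 5.38e-10). For miR-431 the fall was at least 6.02-fold (means of 1.49 and 4.13, adjusted p = 1.33e-07), for miR-369-5p at least 4.74-fold, for miR-382* at least 4.34-fold and for miR-381 at least 4.30-fold. Other named members were detected on 1 to 4 of the 6-week arrays. Among them miR-376a fell by 2.64 ± 0.59, miR-136 by 2.45 ± 0.64, miR-136* by 2.29 ± 0.35, miR-376c by 2.10 ± 0.29, miR-377 by 2.08 ± 0.28, miR-299* by 2.07 ± 0.25, and miR-434-5p and miR-337-3p by 2.02 each. Without replicate 5 of 2 weeks these falls lay between 1.78 and 2.37. Without both arrays that stood apart, that of miR-136 missed the threshold (adjusted p = 0.0624).

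Among the 30 the exceptions were miR-494 and miR-1906. Names of the region tested outside the 296 held falls, such as miR-154* (-1.39), and names not called, such as miR-370 (0.03). For miR-494 the values were 9.04, 8.60, 9.07 and 9.99 at 6 weeks, against 8.93, 8.997, 8.53, 9.12 and 9.13 at 2 weeks, with a change of 0.24 ± 0.28 (adjusted p = 0.595). Its hairpin lies between those of miR-329 and miR-495, which fell by 1.68 and 1.24, as the plot of the region in order along the chromosome shows. The change of miR-1906, whose hairpin lies before all the others, was 0.16 ± 0.29.

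**Figure D3:**
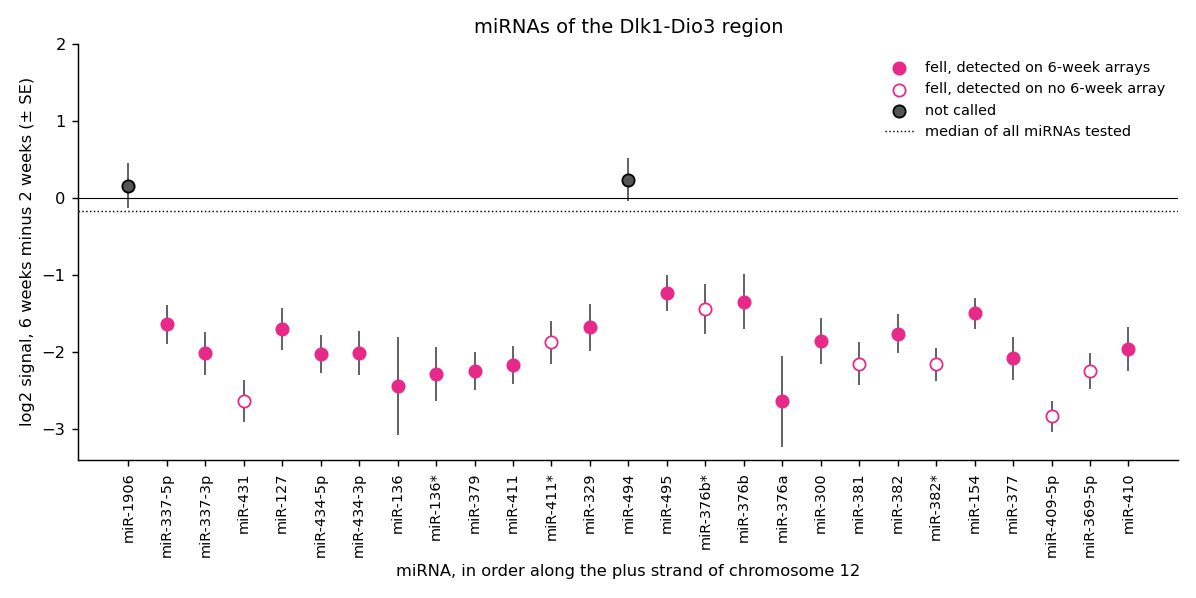
Change of 27 strands of the Dlk1-Dio3 region with a RefSeq position, in their order along the plus strand of chromosome 12. Points give the log2 signal at 6 weeks minus that at 2 weeks with its SE, open circles strands detected on no 6-week array, and the dotted line the median of all names tested. All 25 that fell lie at -1.24 or lower, while miR-1906 stands at 0.16 and miR-494 at 0.24.

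A second imprinted gene, Mest, carries miR-335 in an intron, and both strands of that hairpin fell. For miR-335-5p the signals were 8.15, 7.77, 7.98 and 8.03 at 6 weeks, against 9.89, 10.17, 9.89, 9.83 and 10.59 at 2 weeks. The ages were well apart, and the fall was 2.09 ± 0.20, with the second smallest adjusted p of the 296 (5.3e-08). Within the slides the fall of miR-335-5p was 2.09, 2.11 and 2.21. The other strand, miR-335-3p, fell by 1.42 ± 0.29 (adjusted p = 0.000401). Chosen after its values were seen, miR-296-5p of the imprinted Gnas region had 5.12, 4.17, 4.12 and 5.31 at 6 weeks, against 6.17, 6.27, 5.74, 5.91 and 6.87 at 2 weeks, a fall of 1.51 ± 0.28 (adjusted p = 0.000186).
miR-335-5p: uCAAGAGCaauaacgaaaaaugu
miR-296-5p: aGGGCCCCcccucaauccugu

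The large repeat-like cluster inside Sfmbt2, imprinted in the mouse placenta, changed less. Of its 14 members 6 fell, beside 28.6% of all names tested, with a median of -0.49 beside -0.17. Among them were miR-669b, which fell by 1.13 ± 0.36, miR-669d by 0.81 ± 0.18, miR-467a by 0.63 ± 0.15 and miR-669c by 0.59 ± 0.16. These strands resemble each other closely and may share signal between probes. With quantile normalization none of them fell, and the median of the list became 0.04. The call of miR-669b ended without replicate 4 of 6 weeks (adjusted p = 0.109).

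On the X chromosome the cluster of miR-322, miR-503, miR-351, miR-542 and miR-450 fell as a whole. All 10 members fell, beside 28.6% of all names tested, with a median of -1.001. The hairpins lie at chrX:53048008-53054327 on the minus strand. The cluster is known for slowing the cell cycle and for its part in muscle differentiation. The sequences of its best known member and of the related miR-16 and miR-195 are shown because they share a seed.
miR-322: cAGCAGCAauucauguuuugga
miR-16: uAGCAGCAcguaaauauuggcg
miR-195: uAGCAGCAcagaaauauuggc

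The signal of miR-322 was 11.14, 10.95, 10.86 and 10.61 at 6 weeks, against 11.76, 11.82, 11.75, 11.67 and 12.33 at 2 weeks, a fall of 0.98 ± 0.19 (adjusted p = 0.000329). The other 5 members measured with that seed, miR-15a, miR-15b, miR-16, miR-195 and miR-497, did not pass the test. Of these miR-16 had 12.88, 12.52, 12.45 and 12.93 at 6 weeks, against 12.77, 12.93, 12.92, 12.67 and 12.92 at 2 weeks, and changed by -0.15 (adjusted p = 0.452). It was called a fall with quantile normalization and with array weights (-0.27, adjusted p = 0.0248). With 0.20 (adjusted p = 0.326), miR-195 lay on the other side of 0. The difference between miR-322 and these relatives was not tested.

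Within the cluster the largest falls were those of miR-542-3p and miR-450a-5p. For miR-542-3p the values were 7.24, 7.05, 7.18 and 6.20 at 6 weeks, against 8.46, 8.47, 8.40, 8.35 and 8.47 at 2 weeks. It fell by 1.51 ± 0.35 (adjusted p = 0.00136), and the 2-week arrays, replicate 5 included, had an SD of 0.05. The fall of miR-450a-5p was 1.47 ± 0.32, that of miR-322* 1.12 ± 0.20 and that of miR-450b-3p 1.11 ± 0.14. For miR-450b-3p the adjusted p was 1.34e-06. Close to the threshold, miR-503 fell by 0.97 ± 0.37 (adjusted p = 0.0446). Without replicate 5 of 2 weeks it changed by -0.74 (adjusted p = 0.147), and without replicate 4 of 6 weeks by -0.72 (adjusted p = 0.172). Under the other scalings 4 to 7 of the 10 members fell.

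The miR-17 clusters are known for driving division of progenitor cells in the fetal lung and elsewhere. They fell in 6 of 9 members, beside 28.6% of all names tested, and rose in none, with a median of -0.56. For miR-18a the signals were 6.62, 6.22, 6.12 and 5.57 at 6 weeks, against 7.12, 7.21, 7.37, 7.13 and 7.91 at 2 weeks, a fall of 1.22 ± 0.28 (adjusted p = 0.00127). The others were miR-20a* at -0.78, miR-19b at -0.66, miR-17* at -0.56, miR-17 at -0.51 and miR-20a at -0.46. The calls of miR-19b and miR-20a ended without either of the 2 arrays that stood apart. Of the same transcript miR-92a had 10.41, 9.93, 9.65 and 11.12 at 6 weeks, against 10.26, 10.35, 10.06, 10.05 and 10.34 at 2 weeks, and its change of 0.06 did not pass the test (adjusted p = 0.894). Between 0 and 3 of the members fell under the other scalings, and miR-17 stood at 0.01 with quantile normalization and in the authors' table. In the related miR-106b cluster 1 of 4 members fell, beside 28.6% of all names tested. This was miR-106b*, by 0.90 ± 0.27 (adjusted p = 0.0131), while miR-106b itself changed by -0.60 ± 0.27 (adjusted p = 0.0928). At 6 weeks miR-106b* stood at 1.17, 1.17, 1.17 and 1.90, all but the last at the floor. The ages overlapped, and the size of its fall depends on the floor.

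Families that share a seed fell together in 3 further cases, and falls made up 28.6% of all names tested. The seed of miR-181, known from lymphocytes and from muscle, is carried by 4 names from several chromosomes, and all 4 fell. So did the 3 carriers of the miR-148 and miR-152 seed, a family known to act on the DNA methyltransferase Dnmt1, which was chosen after its values were seen. The third is the seed of miR-130 and miR-301, where 3 fell and 1 more name, miR-721, did not pass the test.
miR-181a: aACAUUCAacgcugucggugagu
miR-181b: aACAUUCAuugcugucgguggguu
miR-181c: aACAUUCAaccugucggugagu
miR-181d: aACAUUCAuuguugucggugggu
miR-148a: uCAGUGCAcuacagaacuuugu
miR-148b: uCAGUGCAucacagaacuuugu
miR-152: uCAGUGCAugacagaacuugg
miR-130a: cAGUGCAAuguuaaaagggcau
miR-130b: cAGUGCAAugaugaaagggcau
miR-301a: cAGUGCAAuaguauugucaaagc

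In the miR-181 family the 2 strands from chromosome 8 fell most. For miR-181d the values were 6.58, 6.47, 6.52 and 7.14 at 6 weeks, against 7.65, 7.72, 7.66, 7.50 and 8.32 at 2 weeks, a fall of 1.09 ± 0.16 (adjusted p = 8.62e-06). For miR-181c they were 8.36, 8.31, 8.38 and 8.68 at 6 weeks, against 9.31, 9.55, 9.27, 9.26 and 9.28 at 2 weeks, a fall of 0.90 ± 0.14 (adjusted p = 1.48e-05). The groups of both were clearly apart. Smaller falls were those of miR-181a-1* at 0.71 ± 0.17, of miR-181b at 0.58 ± 0.22 and of miR-181a at 0.50 ± 0.19. The last 2 overlapped between the ages and were called only narrowly (adjusted p = 0.0436 and 0.0409), and most single arrays, when left out, ended the call. Within the third slide miR-181a changed by 0.36 and miR-181b by 0.07, the direction opposite to that in the other slides. On that slide the 6-week array was replicate 4, without which miR-181a changed by -0.75 and miR-181b by -0.84. Under the other scalings 2 to 5 of the 5 members fell, and miR-181c and miR-181d fell under each.

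Of the miR-148 and miR-152 family miR-148a had 10.20, 9.81, 9.74 and 9.33 at 6 weeks, against 10.66, 10.65, 10.82, 10.52 and 10.55 at 2 weeks, and fell by 0.87 ± 0.25 (adjusted p = 0.00886). By 0.52 ± 0.16 (adjusted p = 0.0161) fell miR-152, and by 0.42 ± 0.14 (adjusted p = 0.0239) miR-148b, neither with an overlap between the ages. The calls of miR-148a, miR-148b and miR-152 under the other scalings are not given here. The falls of miR-301a and miR-130a were 1.25 ± 0.31 (adjusted p = 0.00281) and 0.67 ± 0.13 (adjusted p = 0.000352). For miR-130a the signals were 12.40, 12.19, 12.11 and 12.38 at 6 weeks, against 12.84, 13.01, 12.90, 12.72 and 13.24 at 2 weeks. The fall of miR-130b, 0.55 ± 0.17 (adjusted p = 0.0171), missed the threshold under each other scaling and without any of 3 single arrays, at adjusted p = 0.0537 without replicate 5 of 2 weeks.

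Single miRNAs outside these groups gave some of the larger falls. The signal of miR-551b was 5.09, 4.90, 5.06 and 3.33 at 6 weeks, against 6.32, 6.64, 6.48, 6.60 and 10.32 at 2 weeks. Its fall of 2.68 ± 0.64 (adjusted p = 0.00194) became 1.92 without replicate 5 of 2 weeks, whose value lay beside the day 7 mean of 10.37, and 1.49 without both arrays that stood apart. For miR-218, which lies in introns of the Slit genes, the values were 8.93, 8.85, 8.82 and 8.04 at 6 weeks, against 10.52, 10.75, 10.60, 10.65 and 10.82 at 2 weeks. The fall was 2.01 ± 0.30 (adjusted p = 1.55e-05), and within the slides it was 1.73, 1.88 and 2.67. By 1.39 ± 0.36 (adjusted p = 0.00434) fell miR-455*, whose call ended without both arrays that stood apart (-1.08, adjusted p = 0.0536). It also ended in the authors' table, without any scaling and under quantile normalization. The other strand of its hairpin, miR-455, changed by -0.65 ± 0.30 (adjusted p = 0.107) and passed the test without replicate 4 of 6 weeks (-0.98, adjusted p = 0.0103). The change of miR-340-3p, -0.54 ± 0.12 (adjusted p = 0.00102), stood at 0.07 with quantile normalization and in the authors' table. Not past the test were miR-34a (-0.06), the hypoxia-induced miR-210 (-0.04) and miR-338-3p (0.44), at adjusted p of 0.815, 0.881 and 0.198.
miR-551b: gCGACCCAuacuugguuucag
miR-218: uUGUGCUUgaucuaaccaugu

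The next lists hold markers of cell types that make up the lung wall. The fibroblast miRNAs miR-199a, miR-199b and miR-214 share a host transcript or its paralogue. They fell in 4 of 5 members, beside 28.6% of all names tested, with a median of -0.52. For miR-199a-3p the signals were 12.19, 12.09, 12.05 and 12.28 at 6 weeks, against 12.53, 12.73, 12.57, 12.47 and 12.76 at 2 weeks, a fall of 0.46 ± 0.13 (adjusted p = 0.0077). The others were miR-199b* at -0.62, miR-199a-5p at -0.52 and miR-214* at -1.38, while miR-214 changed by -0.17 (adjusted p = 0.802). Of these members 1 to 4 fell under the other scalings. The smooth muscle miRNA miR-143 fell by 0.48 ± 0.16 (adjusted p = 0.0262), a call that ended when any of 4 single arrays was left out and under each other scaling, and its cluster mate miR-145 changed by -0.03.

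Of 11 epithelial miRNAs 2 fell, beside falls in 28.6% of all names tested. Both came from the sensory and epithelial miR-183 cluster. They were miR-183 at -0.51 ± 0.15 and miR-182 at -0.51 ± 0.16, with the highest 6-week value of each on replicate 4. Both calls ended under each of the 5 other scalings, and without any of 3 single arrays for miR-182 and without 1 for miR-183. Within the third slide their changes were 0.15 and 0.06, and miR-182 stood at 0.02 with quantile normalization. The miR-200 strands, which keep epithelial cells from turning mesenchymal, did not pass the test, with miR-200b at 0.26 ± 0.17 (adjusted p = 0.291). Airway-type miR-205 changed by -0.09.

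No member passed the test among the 9 of the let-7 family, the 10 of miR-30, the 5 of miR-15/16, the 7 of the miR-23/24/27 clusters, the 7 of miR-99, miR-100 and miR-125 clusters, the 3 of miR-26 and the 2 of miR-101. None did among the 4 of endothelium, the 3 of red blood cells, the 4 of striated muscle and the 2 of other organs either. A miss does not show that levels were equal. For let-7b, a bright member of a family that rises as tissues differentiate, the signals were 13.87, 13.67, 13.56 and 14.78 at 6 weeks, against 13.72, 13.77, 13.56, 13.61 and 13.63 at 2 weeks. With the 75th percentile over all names 5 members of let-7 rose, let-7b among them, and with quantile normalization 1 fell. In the same scaling over all names 3 members of miR-30 rose, as did miR-24 and miR-26a, and 2 members of miR-30 rose with quantile normalization and in the authors' table. Endothelial miR-126-3p had 15.31, 15.22, 15.22 and 15.64 at 6 weeks, against 15.45, 15.61, 15.37, 15.29 and 15.09 at 2 weeks, a change of -0.02 ± 0.14. Erythroid miR-451 changed by -0.39 ± 0.24 and miR-1, of striated muscle, by -0.43 ± 1.08.

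**Figure D4:**
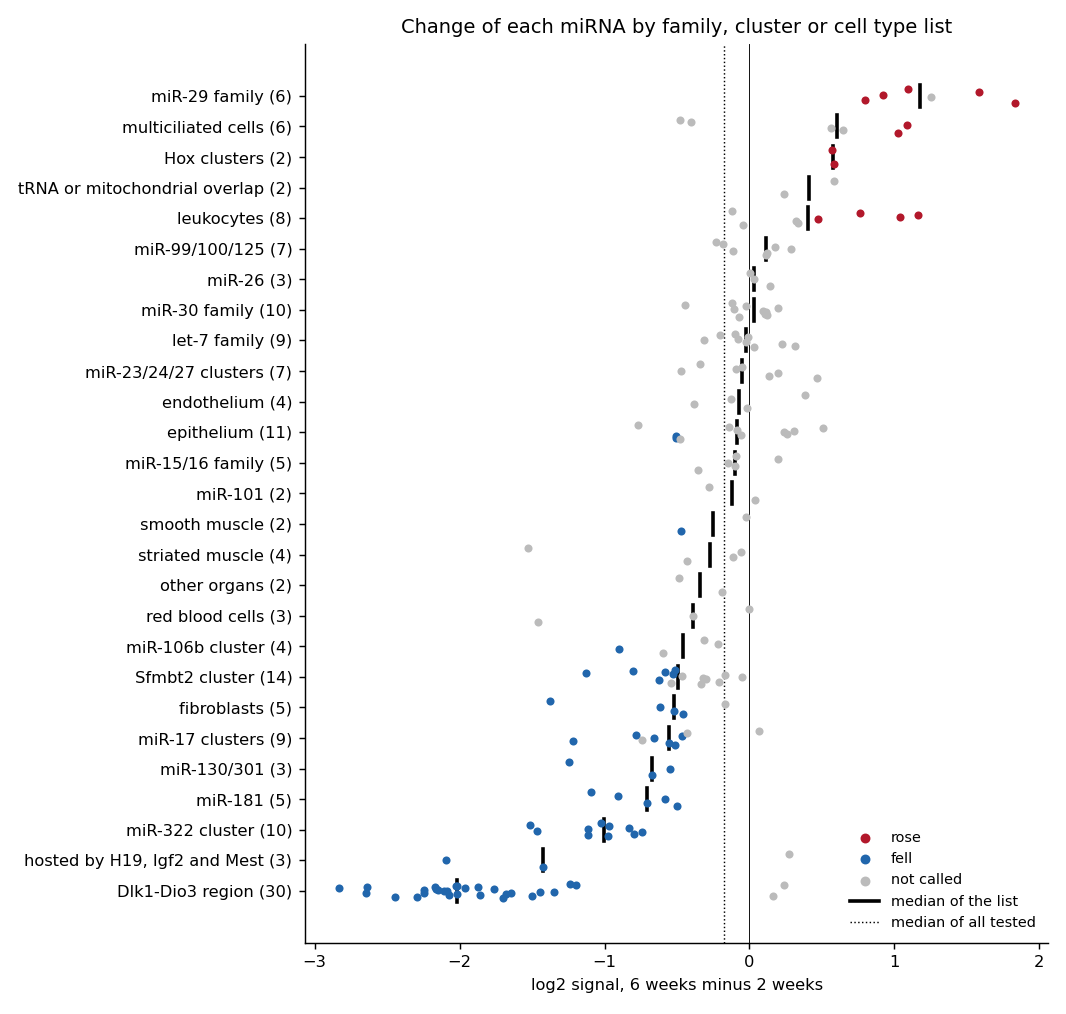
Change of each miRNA by family, cluster or cell type list, with the number of members in parentheses. Points give the log2 signal at 6 weeks minus that at 2 weeks, bars the median of a list and the dotted line the median of all names tested. The miR-29 family stands highest with a median of 1.17 and the Dlk1-Dio3 region lowest with -2.02.

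Summed signals of the marker lists, in which the brightest strand weighs most, are given on the linear scale. That of the 8 leukocyte miRNAs was 9086 to 11220 at 6 weeks and 6199 to 9023 at 2 weeks, and that of the 5 fibroblast miRNAs 7802 to 8848 at 6 weeks and 10870 to 13020 at 2 weeks. That of the 2 smooth muscle miRNAs was 2245 to 2880 at 6 weeks and 3243 to 3722 at 2 weeks. In these 3 lists the ranges did not overlap under the main scaling, the only one for which sums were computed. The summed signals overlapped for endothelium (39470 to 53330 at 6 weeks, 36440 to 52180 at 2 weeks), epithelium (9764 to 11220 at 6 weeks, 9050 to 10880 at 2 weeks), multiciliated cells (2298 to 4934 at 6 weeks, 2383 to 3658 at 2 weeks) and red blood cells (23360 to 52590 at 6 weeks, 35930 to 56900 at 2 weeks). For striated muscle they spanned 746.7 to 2393 at 6 weeks and 740.3 to 3564 at 2 weeks. What part a change in cell makeup had in any miRNA named here was not tested.

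The course over the 5 ages places the step. The comparison of 2 weeks with day 7, which called 100 of the names tested (31.1%), shares the 2-week arrays with that of 6 weeks, so the values stand side by side without a test between them. For miR-29a the mean signal was 9.60, 9.64 and 9.80 on days 1, 4 and 7, 11.58 at 2 weeks and 13.41 at 6 weeks, with the step into 2 weeks 1.79 and that into 6 weeks 1.83. For miR-379 those steps were -1.40 and -2.25, for miR-335-5p -0.99 and -2.09, and for miR-322 -0.65 and -0.98. Both steps use replicate 5 of 2 weeks, which lay nearest day 7. Without it the step into 6 weeks was 1.53 for miR-29a, -2.04 for miR-379, -1.96 for miR-335-5p and -0.86 for miR-322. The step into 2 weeks was not computed without that array, so the 2 steps cannot be ranked by size. Others had a step near 0 into 2 weeks. With means of 9.60, 10.31, 10.74 and 10.67 on days 1, 4 and 7 and at 2 weeks, miR-218 stood at 8.66 at 6 weeks. In the miR-322 cluster miR-542-3p, miR-450a-5p and miR-450b-3p had steps of -0.03, 0.07 and 0.01 into 2 weeks.

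Against all younger arrays, the 4 arrays of 6 weeks lay above all 20 for 9 of the 296 miRNAs, beside 2.8% of all names tested, and below all 20 for 47, beside 17.1%. The 9 were miR-29a, miR-29c, miR-29c*, miR-29b*, miR-155, miR-150, miR-146b, miR-34c* and miR-7a*. Of the 47, 26 belonged to the Dlk1-Dio3 region and 21 did not. A different course was that of miR-223, whose mean was 10.82 on day 1, 10.18 on day 7 and 11.26 at 6 weeks.

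**Figure D5:**
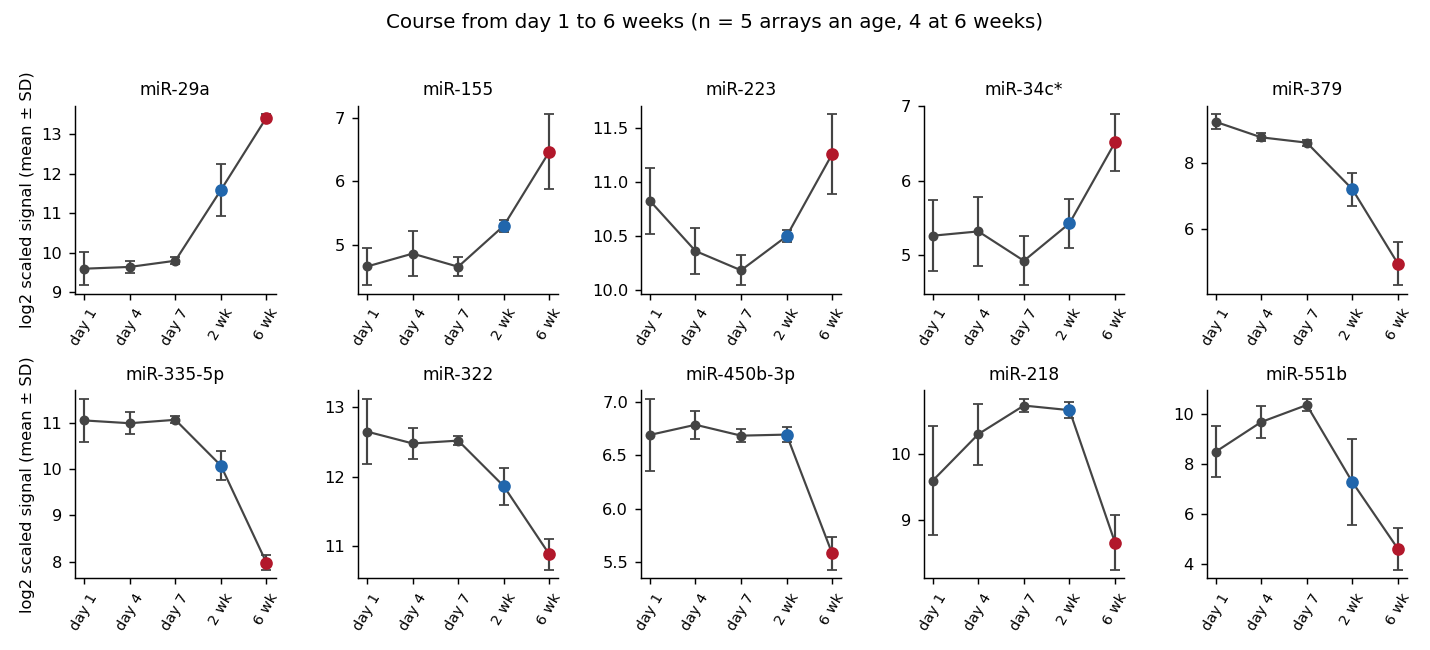
Mean log2 scaled signal with SD of 10 miRNAs on day 1, day 4, day 7, at 2 weeks and at 6 weeks (n = 5 arrays an age, 4 at 6 weeks). The 2-week point is blue and the 6-week point red. From 2 weeks on miR-29a climbs and miR-379 and miR-335-5p drop, while miR-218 and miR-450b-3p lie at 2 weeks about where they were on day 7 and drop after it.

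By chromosome, 25 of the 34 matched strands on chromosome 12 fell, and 10 of 27 on the X chromosome fell, 9 of them in the miR-322 cluster, beside 28.6% of all names tested. The 109 members in no list gave 1 rise and 12 falls, with a median of -0.05. Just inside the threshold lay miR-503 and miR-149 (-0.76, adjusted p = 0.0485), and just outside it miR-153 (-2.27 ± 0.88, adjusted p = 0.0521) and miR-27b (-0.34 ± 0.14, adjusted p = 0.0708). Among the 257 miRNAs detected on every array of both ages, 14 rose and 59 fell, with a median of -0.10. The 34 detected on every array of 2 weeks only gave 25 falls. The 5 of 6 weeks only gave 1 rise, that of miR-29a*. In both groups the detection itself leans to the direction called.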

How the data were processed

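Agilent 1-colour arrays of 24 mouse lung RNA samples were used, labelled with Cy3 from 100 ng of total RNA after extraction with a miRNeasy kit, per the labels' protocols. The deposited values are intensities from Feature Extraction 10.7.1.1, per the file headers: a background-subtracted total signal for each miRNA name, with a detection flag. The series also holds log2 values the authors normalized between arrays by a method not given in the sources used here, used only as an alternative.

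Each total signal was divided by the array's 75th percentile over the names detected on all arrays, set to a floor of 2.248 where lower, and log2 transformed. One limma model (limma 3.58.1, R 4.3.3) with the 5 ages as groups was fitted over 24 arrays, with 19 residual degrees of freedom, on the names detected throughout at least one age. P-values were adjusted by the Benjamini-Hochberg method, with a threshold of 0.05. The fit was tested on simulated data. For tables and figures Python 3.11.15 was run, with the libraries numpy 2.4.6, pandas 2.3.3, matplotlib 3.10.9 and scipy 1.17.1. The number of arrays limits the precision.

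Named are the 12 largest rises and falls that passed the test, were detected throughout the age with the higher signal and showed no overlap, and in each list its key members, up to 4 further called members, and members whose call rests on 1 array or on the scaling. The members and lists were chosen with earlier results of these data known. Alternatives were other scalings, floors, filters and backgrounds, the slide, the replicate number or array brightness in the model, array weights, and single arrays left out. Leaving out both arrays that stood apart was chosen after seeing the data. The files used here hold no mean spot signal, so normexp was run on the median spot and background signals.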

Additional observations from a re-analysis of the deposited data

Results flagged for a closer look

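The signals of the 96 named miRNAs, the number of miRNAs detected and the brightness before scaling gave 196 groups of 4 or 5 arrays. In 37 of them, each the signal of a named miRNA, one array lay far from the others by Dixon's criterion. Chance meets it in about 1 group in 20, a rate that does not hold where the other arrays are tied at the floor. Most of the outlying arrays were replicate 5 of 2 weeks or replicate 4 of 6 weeks.

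On replicate 4 of 6 weeks the log2 signal was the lowest of its age for miR-29c (11.39), miR-29b (9.72), miR-551b (3.33), miR-101a (8.85), miR-218 (8.04) and miR-455* (4.05). It was the highest of its age for miR-146b (9.02), miR-106b* (1.90), miR-181d (7.14), miR-183 (6.77) and miR-182 (5.66). For miR-106b* the other 6-week arrays lay at the floor.

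Replicate 1 of 6 weeks was the highest of its age for 5 strands of the Dlk1-Dio3 region, miR-409-5p (1.59), miR-431 (2.45), miR-411 (4.44), miR-382* (1.64) and miR-381 (1.79). For miR-409-5p, miR-431 and miR-382* all other 6-week arrays lay at the floor, so any value above it meets the criterion. For miR-381 the other 6-week arrays lay at 1.17, at or just above the floor. Replicate 2 of 6 weeks was the lowest for miR-29c* (6.55), and replicate 3 the highest for miR-20a* (3.81).

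On replicate 5 of 2 weeks the signal was the lowest of its age for miR-29a (10.4), miR-29c (9.09), miR-29c* (4.81), miR-29a* (1.30), miR-450a-5p (9.23) and miR-101a (9.33). It was the highest for miR-551b (10.32), miR-431 (5.30), miR-411 (6.51), miR-382* (4.38), miR-322 (12.33), miR-503 (8.63), miR-335-3p (5.73), miR-301a (10.16), miR-181d (8.32), miR-449a (10.63), miR-214* (3.65) and miR-199a-5p (10.52). Replicate 2 of 2 weeks was the highest for miR-181c (9.55).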

How the results depend on the processing

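Beside 107 names called with the settings reported, 66 were called with no scaling, 22 with normexp background, 71 among names detected on all 9 arrays, 34, 31 and 38 within slides 1, 2 and 3, and 56 when a 2-fold change was also asked for. Leaving out single arrays gave 90 to 108 calls, and a difference in detected miRNAs of -31.53 to -18.2. With normexp the change turned to -0.049 for miR-34b-3p, -0.53 for miR-29b*, -0.43 for miR-7a* and -0.59 for miR-29a*. With quantile normalization and in the authors' table it was 0.0088 for miR-17, 0.0695 for miR-340-3p and 0.018 for miR-182. Within slide 3 it was 0.36 for miR-181a, 0.0697 for miR-181b, 0.15 for miR-183 and 0.063 for miR-182. With the 75th percentile over all names miR-210 stood at 0.31 (adjusted p = 0.0188) and miR-126-3p at 0.33 (adjusted p = 0.0401). The cause of these turns was not tested. The replicate numbers do not pair the arrays (correlation of deviations of -0.50, 0.03, 0.14 and -0.11 for numbers 1 to 4), and a replicate block gave 97 calls. Of the other values, 2933 kept their direction and side of the threshold or, for medians of lists, moved by less than the spread. A further 387 lost their call and 38 gained one. Another 178 changed sign without a call or, for medians of lists, moved by more than the spread. Strands near the floor have only a bound at 6 weeks.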
